A study of Mus musculus with 2 samples.

Results

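The replication-dependent histone genes of the mouse were followed across a map of open chromatin in the adult kidney. Members were the protein-coding genes of the GENCODE M21 annotation whose names start with Hist1h, Hist2h, Hist3h or Hist4h. They numbered 67 of the 21670 such genes annotated on the autosomes and X. By histone type there were 6 H1, 18 H2A, 18 H2B, 12 H3 and 13 H4 genes. By cluster, 54 lay in Hist1 on chromosome 13, 10 in Hist2 on chromosome 3, 2 in Hist3 on chromosome 11 and 1, Hist4h4, on chromosome 6.

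The assay was DNase-seq, which sequences DNA ends left where the enzyme DNase I cuts open chromatin. The 2 libraries, biological replicates 1 and 2, came from kidney tissue of female B6CASTF1/J mice of 8 to 10 months, a first-generation cross between the C57BL/6J and CAST/EiJ strains. Both tissue samples stand under a single donor entry and the labels do not say if different animals were used, so differences between the libraries may be technical. With 1 group and no control tissue, no test over samples was possible and the values below are descriptions. A chromosome set of each animal differs from the C57BL/6J reference, and the part of this in the values was not tested. Signal is the value the authors gave each peak, and coordinates are on mm10 (GRCm38.p6), counted from 1.

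Replication-dependent histone genes make the bulk of the H2A, H2B, H3 and H4 of the nucleosome core and of the linker histone H1, and are transcribed mostly in S phase, when new DNA must be packaged. They are short, mostly without introns, and lie in clusters, and their mRNAs end in a stem-loop bound by the protein SLBP in place of a poly(A) tail. Their transcription depends on the coactivator NPAT, and that of H4 genes also on HINFP, which binds the promoter element called site II. Most epithelial cells of the adult kidney are not dividing.

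The stem-loop, a short hairpin in the RNA, served as a check of the label. It was searched on the gene's strand in the reference within 200 bases after the stop codon, as GGCTCT, any 4 bases and AGAGCC. This form was found in 52 of the 67 members, against 55 of 21492 protein-coding genes with an annotated stop codon (0.256%). A second form, GGCCCT, any 4 bases and AGGGCC, was added after no H4 gene had shown the first. It was found in 11 members, all of them among the 13 H4 genes, so that 63 of the 67 members carried a form. The commonest letters of the first form, found in 41 members, and those of the second form in Hist1h4c are shown, with the whole element in capitals.
First form: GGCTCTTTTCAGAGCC
Second form in Hist1h4c: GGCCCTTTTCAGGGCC

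The first form lay 22 to 59 bases after the stop codon of the members that had it. Hist2h2be, Hist1h2an, Hist1h4j and Hist1h4b had neither form. Among non-member genes, the first form was found in H2bfm, AA986860 and Gm9918 and the second in H2afx and Bap1. H2afx encodes the variant H2A.X, whose gene is known to give both stem-loop and polyadenylated transcripts. Of the kidney markers, 10 tubule genes from Lrp2 of the proximal tubule (signal 5.13 and 5.66) to Slc12a3 of the distal tubule (1.82 and 1.21) had an open promoter in both libraries, where the first value is replicate 1 and the second replicate 2. Scnn1g of principal cells (4.2 and 5.92) and Wt1 of podocytes (0.488 and 0.550) were open too. Aqp2 of principal cells and Nphs1 of podocytes were not, and neither were the immune genes Ptprc, Cd3e, Cd79a and Lyz2. The germ-cell genes Dazl and Sycp3 had open promoters, and Ddx4 and Prm1 did not.

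A promoter was called open where peaks of both libraries overlapped each other and reached within 500 bases of an annotated transcription start site (TSS). By this rule 56 of the 67 members (83.6%) were open, against 63.0% of all protein-coding genes (13643 of 21670). The open members used 47 distinct regions, since some neighbours shared a region. Their median signal, the mean of both libraries for each gene, was 2.90, against 4.78 for all open promoters. By library it was 3.21 in replicate 1 and 2.67 in replicate 2 for the members, against 4.399 and 5.05 for all open promoters. Thus members were open more often than the average gene but at lower signal. Of the 56 open members, 17 lay above the median of all open promoters and 5 above their upper quartile of 8.66. In a bulk tissue, a promoter open in few cells and a promoter weakly open in many cannot be told apart.

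The width of the open regions was close to that of other promoters, with a median of 264.5 bases in members and 260 in all open promoters. The centre of the region lay at a median of 73.5 bases before the TSS in members and 95.5 bases before it in all open promoters. Less of the promoter window was listed by the authors at a false discovery rate (FDR) up to 0.05. The listed share was a median of 49.6% in replicate 1 and 53.8% in replicate 2 in open members, against 69.2% and 78.4% in all open promoters. Member promoters were rich in CpG, the base pair step that marks many housekeeping promoters. Their median ratio of observed to expected CpG was 0.879, against 0.495 for all protein-coding genes. Among genes with a ratio of at least 0.6, 54 of 64 members (84.4%) were open at a median signal of 2.90, against 8424 of 9198 genes (91.6%) at 5.96.

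**Figure D1:**
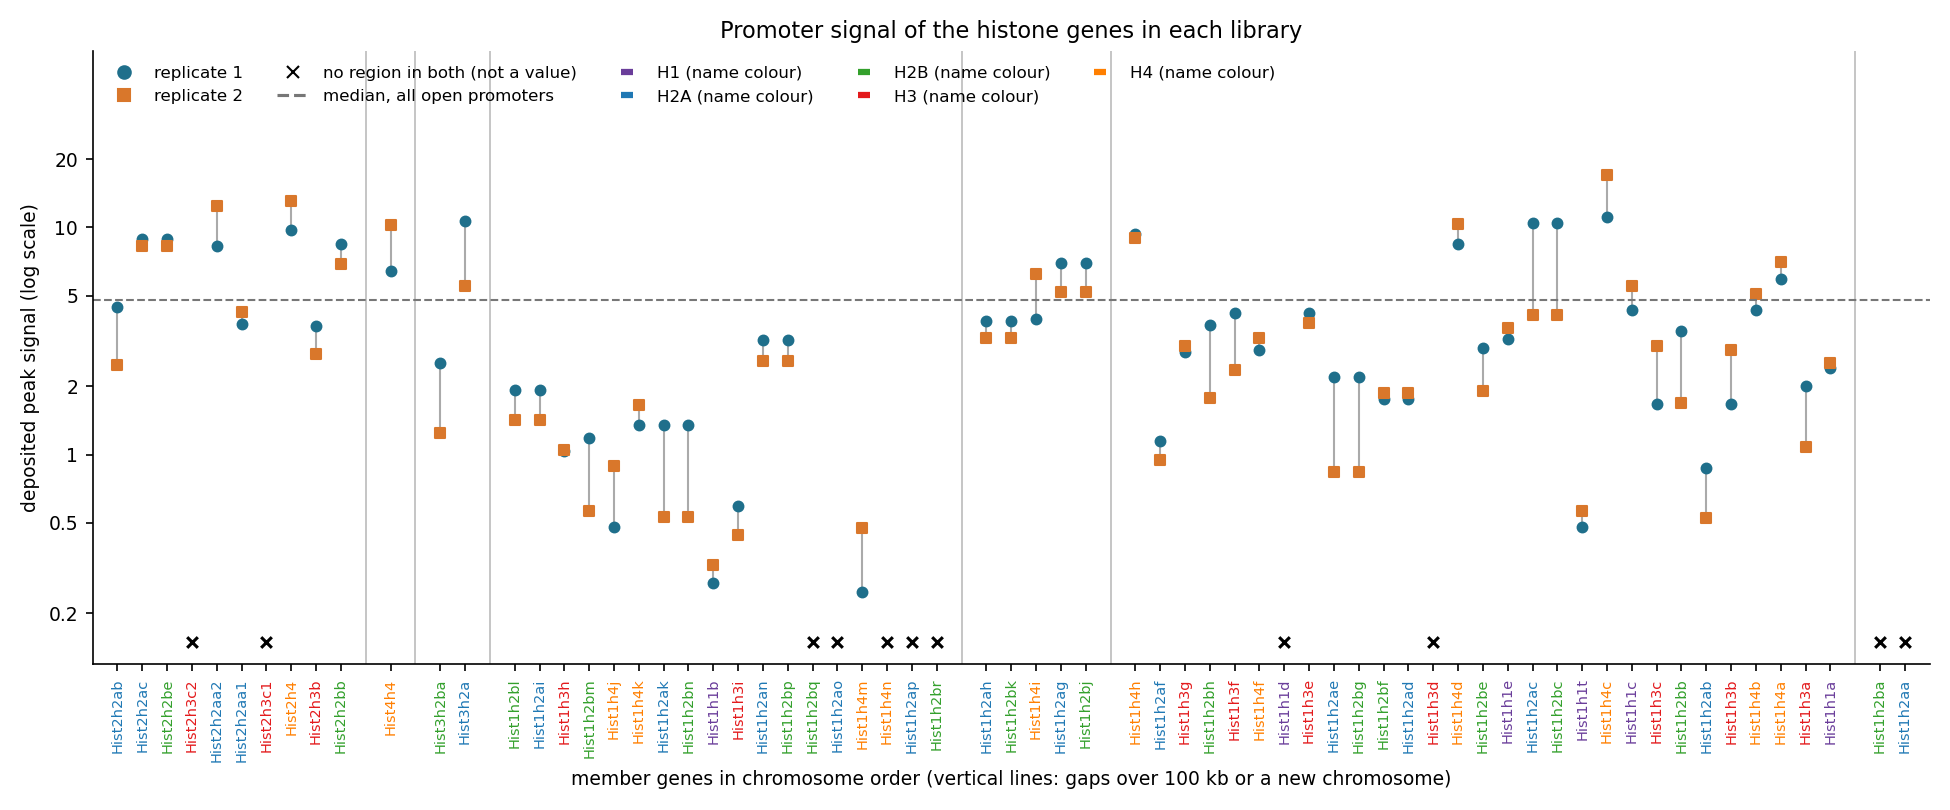
Signal of the promoter region of each of the 67 members in chromosome order, on a log axis, with circles for replicate 1, squares for replicate 2, and crosses at the bottom for the 11 members with no region in both libraries. Hist2 genes (left) and H4 genes hold most of the points above the dashed line, the median of 4.78 of all open promoters, while the first block of Hist1 lies below it.

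H4 genes, whose product pairs with H3 in the core of the nucleosome, had the highest signal of the 5 types. Of 13 H4 genes 12 were open (92.3%), with a median signal of 5.78 and a range of 0.362 to 14.1. Hist1h4c had the highest signal of all members, 11.2 in replicate 1 and 17.0 in replicate 2 (mean 14.1 ± 4.12, SD, n = 2). Its region covered chr13:23698381-23698640, from 186 bases before to 73 bases after the TSS. Hist2h4 followed with 9.76 and 13.03 (11.4 ± 2.32), and Hist4h4, the lone member on chromosome 6, had 6.42 and 10.3 (8.36 ± 2.74). The lowest open H4 genes were Hist1h4m with 0.248 and 0.475 and Hist1h4j with 0.480 and 0.892. In both libraries these low genes lay far below Hist1h4c.

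The promoters of H4 genes at both ends of this range are shown from 150 bases before to 30 bases after the TSS, 5′ to 3′ on the gene's strand, because the site II core GGTCCG can be read in each of them. Capitals mark bases inside footprints of both libraries, which are short stretches the enzyme cut less, as called by the authors. The windows are chr13:23698425-23698604, minus strand, for Hist1h4c, chr6:136804386-136804565, minus strand, for Hist4h4, and chr13:21734914-21735093, plus strand, for Hist1h4j.
Hist1h4c: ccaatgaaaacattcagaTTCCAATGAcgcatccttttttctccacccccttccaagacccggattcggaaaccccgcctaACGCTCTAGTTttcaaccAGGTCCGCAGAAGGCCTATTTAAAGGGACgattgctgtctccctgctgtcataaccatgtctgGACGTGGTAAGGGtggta
Hist4h4: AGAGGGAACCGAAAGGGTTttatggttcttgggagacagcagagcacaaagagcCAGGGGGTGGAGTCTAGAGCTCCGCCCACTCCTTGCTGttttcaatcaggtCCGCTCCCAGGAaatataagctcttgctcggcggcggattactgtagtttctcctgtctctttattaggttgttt
Hist1h4j: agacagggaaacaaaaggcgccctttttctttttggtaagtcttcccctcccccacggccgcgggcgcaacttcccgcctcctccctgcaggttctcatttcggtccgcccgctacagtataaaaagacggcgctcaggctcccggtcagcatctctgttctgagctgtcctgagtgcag

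GGTCCG was found between 250 bases before and 50 bases after the TSS, on either strand, in 12 of 13 H4 genes, against 10.2% of all protein-coding genes. All 12 matches were on the gene's strand, with the first base 55 to 85 bases before the start codon (median 80). Of these, 9 touched a footprint of both libraries by at least 1 base. The other 3 were in Hist1h4j and Hist1h4m, the lowest open H4 genes, and in Hist1h4n, which was not open. A link between signal and footprints at this element was not tested. Hist1h4a, the H4 gene without a match, had a signal of 5.90 and 7.01 and 7 footprints of both libraries. In the sequences above, the whole core lies in capitals in Hist1h4c, its last bases do in Hist4h4, and none of it does in Hist1h4j.

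H2A and H2B genes, whose products form the dimers on either face of the nucleosome, were mostly arranged as divergent pairs. There were 12 such pairs, each of 1 H2A and 1 H2B gene, holding 24 of the 36 genes of these types, with the TSSs 176 to 306 bases apart (median 274.5). In 9 pairs both genes shared a single open region, and the 3 others had none. The centre of the shared region lay at a median of 52.8% of the way between the TSSs. The exception was the pair of Hist1h2ae and Hist1h2bg, where the centre lay 54.5 bases inside Hist1h2ae.

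The strongest pair was Hist2h2ac and Hist2h2be in the Hist2 cluster, at 8.86 and 8.32 (8.59 ± 0.378). Hist1h2ac and Hist1h2bc came next in the mean, at 10.5 in replicate 1 and 4.13 in replicate 2 (7.31 ± 4.50). Then came Hist1h2ag and Hist1h2bj at 6.95 and 5.18 and Hist1h2ah and Hist1h2bk at 3.87 and 3.25. The weakest pair was Hist1h2ak and Hist1h2bn at 1.36 and 0.534. The libraries were close to each other in the first of these pairs and more than 2-fold apart in the second and the last.

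The sequences between the TSSs of the strongest pairs are shown on the plus strand, since a single short stretch serves both genes. The first gene reads to the left from the start of the line and the second to the right from its end, and capitals mark bases inside footprints of both libraries. The stretches are chr3:96220880-96221119 and chr13:23683948-23684199.
Hist2h2ac and Hist2h2be: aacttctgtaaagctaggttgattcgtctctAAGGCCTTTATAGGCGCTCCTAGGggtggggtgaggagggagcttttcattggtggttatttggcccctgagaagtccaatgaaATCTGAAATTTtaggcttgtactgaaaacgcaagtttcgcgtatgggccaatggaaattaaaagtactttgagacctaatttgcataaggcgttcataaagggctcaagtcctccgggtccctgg
Hist1h2ac and Hist1h2bc: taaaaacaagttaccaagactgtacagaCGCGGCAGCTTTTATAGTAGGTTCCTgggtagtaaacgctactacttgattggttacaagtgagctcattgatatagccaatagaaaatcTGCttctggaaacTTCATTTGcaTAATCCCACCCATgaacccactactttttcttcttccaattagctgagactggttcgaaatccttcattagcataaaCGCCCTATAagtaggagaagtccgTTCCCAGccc

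CCAAT, the element bound by NF-Y, was found on either strand in all 18 H2A and all 18 H2B promoters, against 37.0% of all protein-coding genes. The octamer ATTTGCAT, bound by the Oct-1 protein at H2B genes, was found in 7 H2A and 8 H2B genes and in no other member, against 1.75% of all protein-coding genes. In the pairs a match between the TSSs counts for both genes. In the strip between Hist1h2ac and Hist1h2bc, the octamer at 117 bases before the Hist1h2bc TSS touched footprints of both libraries, which cover all but 2 of its bases (in lower case in the line above). No other octamer of an open member touched a footprint of both libraries. A match of TATAAA, the element bound by the general factor TBP, lay under such footprints in Hist2h2ac, Hist2h2aa1, Hist2h2aa2 and Hist1h2ac, 73 to 78 bases before the start codon.

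Among all H2A genes 15 of 18 (83.3%) were open, with a median signal of 3.48, and among H2B genes 15 of 18 (83.3%), with a median of 2.59. The highest H2A gene was Hist2h2aa2 at 8.30 and 12.5 (10.4 ± 2.96), a gene outside the divergent pairs. Of the 32-base words of its promoter window, 72.7% occur elsewhere in the genome. The lowest open H2A gene was Hist1h2ab at 0.876 and 0.525. Hist2h2bb was the second H2B gene at 8.48 and 6.92 (7.70 ± 1.11), and the lowest was Hist1h2bm at 1.18 and 0.567. Of the other members outside Hist1, Hist2h2ab had 4.47 and 2.48 and Hist2h2aa1 had 3.77 and 4.24. Hist3h2a had 10.7 and 5.52 and Hist3h2ba 2.52 and 1.25, so both Hist3 genes were about 2-fold higher in replicate 1. The region of Hist2h2ab also reached the promoter window of Bola1, and that of Hist3h2a the window of Trim17, so these values are not theirs alone.

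H3 genes were open in 9 of 12 cases (75%), with a median signal of 2.35 and a highest mean of both libraries of 4.00. The highest was Hist1h3e at 4.22 and 3.79 (4.00 ± 0.305). Hist1h3f had 4.21 and 2.36, but its region began 229 bases after the annotated TSS and held the start codon, 433 bases after it. Hist2h3b, the open H3 gene of Hist2, had 3.68 and 2.76. The lowest were Hist1h3i at 0.595 and 0.442 and Hist1h3h at 1.03 and 1.05. H3 values thus stayed under the median of all open promoters in every open gene. The promoter of Hist1h3e (chr13:23562340-23562519, minus strand) is shown because both of its CCAAT elements nearest the TSS touch footprints of both libraries, which are in capitals.
Hist1h3e: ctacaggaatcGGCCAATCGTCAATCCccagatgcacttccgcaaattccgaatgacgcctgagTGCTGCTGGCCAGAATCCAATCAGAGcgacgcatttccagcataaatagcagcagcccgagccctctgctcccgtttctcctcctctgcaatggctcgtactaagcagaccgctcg

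CCAAT was found in 11 of 12 H3 promoters. Of the 27 matches in H3 genes, 3 touched such footprints, 2 in Hist1h3e and 1 in Hist1h3b.

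H1 genes, which encode the linker histone between nucleosomes, were open in 5 of 6 cases (83.3%) with a median signal of 2.47. Hist1h1c was the highest at 4.32 and 5.50 (4.91 ± 0.839), followed by Hist1h1e at 3.24 and 3.60. Hist1h1b was the lowest of all 56 open members at 0.273 and 0.325. Hist1h1t, the H1 of spermatocytes, had 0.480 and 0.567 in a region that began 391 bases after its TSS. Its promoter window held no footprint in either library. The AC box AAACACA, an element of H1 promoters, was found in 4 of 6 H1 genes, against 6.66% of all protein-coding genes. Its first base lay 113 to 117 bases before the TSS in all 4. The promoters with the highest and the lowest signal, Hist1h1c (chr13:23738658-23738837, plus strand) and Hist1h1b (chr13:21780596-21780775, minus strand), are shown to place the AC box, with footprints of both libraries in capitals.
Hist1h1c: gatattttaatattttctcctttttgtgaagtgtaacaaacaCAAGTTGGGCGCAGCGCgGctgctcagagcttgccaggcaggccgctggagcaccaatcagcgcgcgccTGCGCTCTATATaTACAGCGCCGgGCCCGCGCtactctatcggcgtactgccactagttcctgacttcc
Hist1h1b: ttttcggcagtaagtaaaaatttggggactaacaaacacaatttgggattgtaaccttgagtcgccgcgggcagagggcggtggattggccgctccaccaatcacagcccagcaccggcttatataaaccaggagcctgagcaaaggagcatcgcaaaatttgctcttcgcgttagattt

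The AC box of Hist1h1c had its last bases inside a footprint of both libraries. Those of Hist1h1b, Hist1h1e and Hist1h1t touched none. The promoter window of Hist1h1b held no footprint of both libraries at all.

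By cluster, 8 of 10 Hist2 genes were open at a median signal of 8.14, both Hist3 genes at 5.002, and 45 of 54 Hist1 genes at 2.47. Hist1 itself was uneven. Members less than 100 kb apart on chromosome 13 formed 4 blocks. The first, chr13:21715763-21837530, held 18 members, of which 13 were open at a median of 0.945. The second, chr13:22035164-22043676, held 5, all open, at a median of 5.09. The third, chr13:23531050-23764406, held 29, of which 27 were open at a median of 2.74. The last was the pair of the testis histone genes Hist1h2ba and Hist1h2aa, and neither was open. The highest signal in the first block was 2.88, in Hist1h2an and Hist1h2bp, below every member of the second block, where the lowest was 3.56. Genes of the same type differed between blocks as well. The open H4 genes of the first block, Hist1h4j, Hist1h4k and Hist1h4m, had mean signals of 0.686, 1.503 and 0.362, while Hist1h4i of the second block had 5.09.

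No promoter region of both libraries was found for 11 members. Of these, 8 had no peak in either library at the promoter. They were Hist2h3c1, Hist1h2bq, Hist1h2ao, Hist1h2ap, Hist1h2br, Hist1h1d, Hist1h2ba and Hist1h2aa. The other 3 had a peak in replicate 1 alone, at a signal of 0.901 in Hist2h3c2, 0.314 in Hist1h4n and 0.422 in Hist1h3d. Hist1h1d is annotated with a TSS 1828 bases before its start codon, and a region at the start codon had 1.21 and 1.41. Hist1h2ba and Hist1h2aa encode the H2B and H2A of male germ cells.

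Near-identical copies are common among these genes, and a short read from a repeated stretch has more than 1 possible place of origin. The share of 32-base words of each promoter window found elsewhere in the genome, on either strand, was a median of 36.4% in members. It was 0% in a sample of every 50th protein-coding gene (434 genes) and 7.01% in the ribosomal protein genes. In 8 members the share over the whole window was above 90%. These were Hist2h3c1 and Hist2h3c2 at 96.7% each, Hist1h2bq, Hist1h2ao, Hist1h2ap and Hist1h2br at 100% each, Hist1h4m at 96.2% and Hist1h4n at 97.1%. Of these 8 members 1 was open, Hist1h4m, against 55 of the other 59 (93.2%). The next shares were 72.7% in Hist2h2aa2 and 66.7% in Hist2h2aa1, and both were open. Over bases before the TSS alone, the gap was smaller. There the share was 85.4% in Hist2h2aa2 and 81.3% in Hist2h2aa1. It ran from 91.3%, in Hist2h3c2, to 100% in the 8 members above, and its median over all open members was 0%. How reads that match several places were treated is not given in the sources used here. Whether the closed calls of the repeated members reflect lost reads was not tested.

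**Figure D2:**
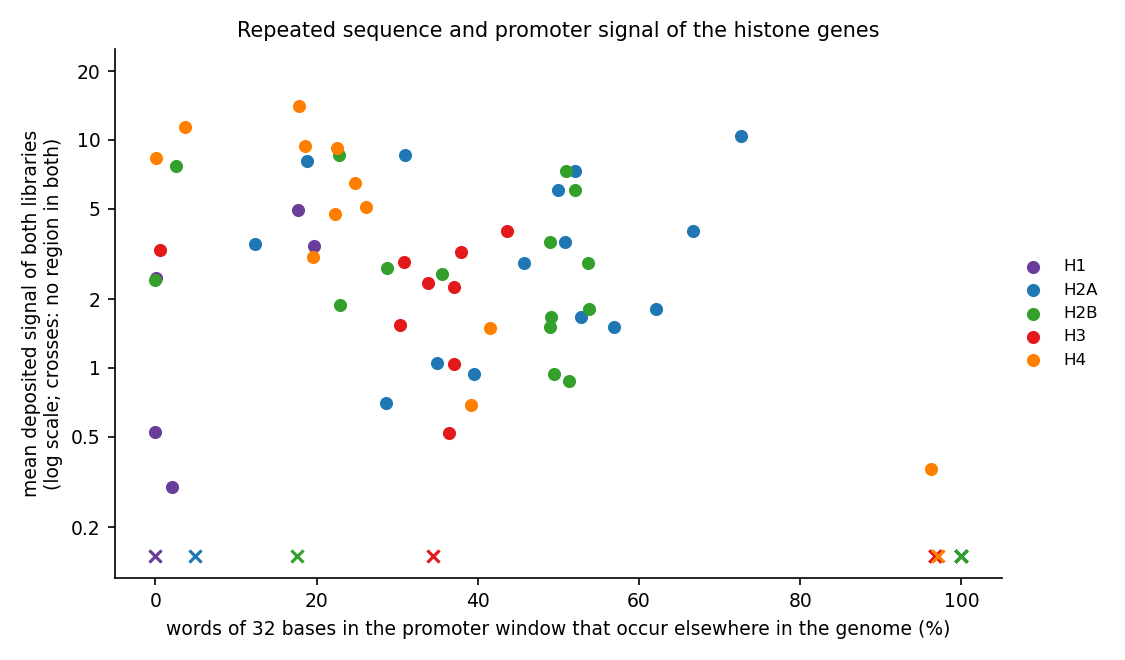
Mean signal of both libraries on a log axis against the share of 32-base words of the promoter window that occur elsewhere in the genome, for the 67 members coloured by type, with crosses at the bottom for members with no region in both libraries. Of the 8 members above 90% a single one, Hist1h4m, has a signal, at 0.362, while members up to 72.7% cover the whole range of signal.

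The libraries differed more at the members than at other promoters. Of the 56 open members 10 (17.9%) differed more than 2-fold between the libraries, in 7 distinct regions, against 2.87% of all open promoters and 4.82% of those with a signal below the median. The direction differed by histone type. All 5 open H1 genes and 11 of 12 open H4 genes were higher in replicate 2, while 3 of 15 H2A genes, 1 of 15 H2B genes and 4 of 9 H3 genes were. Over all members 42.9% were higher in replicate 2, against 62.1% of all open promoters. The log2 ratio (replicate 2 over replicate 1) had a median of 0.36 in H4, 0.24 in H1, -0.16 in H3, -0.42 in H2A and -0.63 in H2B genes, against 0.12 over all open promoters. The largest ratios were those of the pair Hist1h2ae and Hist1h2bg, at 2.19 in replicate 1 and 0.842 in replicate 2 (log2 ratio -1.38), and of the pair Hist1h2ac and Hist1h2bc (log2 ratio -1.35). With 2 libraries of 1 group, a difference in the tissue samples and one in the libraries cannot be told apart. Genes of a pair share a region, so their ratios are a single measurement.

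**Figure D3:**
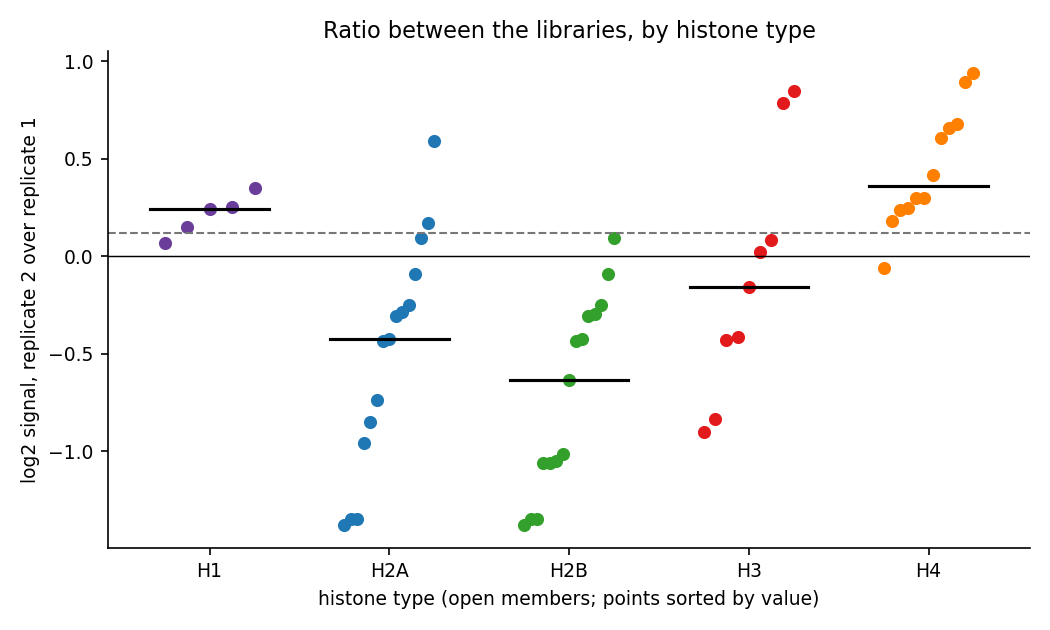
Log2 ratio of the signal in replicate 2 to that in replicate 1 for each open member, by histone type, with black bars for the medians and the dashed line for the median of 0.12 over all open promoters. H4 and H1 genes lie above 0 except 1 H4 gene, and most H2A and H2B genes lie below it.

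Footprints of both libraries were found in the promoter windows of 48 of the 67 members (71.6%), against 58.3% of all protein-coding genes (12633 of 21670). Among open promoters, 48 of 56 members (85.7%) held such a footprint, against 92.5% of all. The median number was 2 in open members and 4 in all open promoters. By type the share of open members was 60% in H1, 86.7% in H2A, 93.3% in H2B, 88.9% in H3 and 83.3% in H4 genes. The window of Hist3h2a held the most, 10, and its region also reached the Trim17 window.

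Along the promoter, the members' footprints were most frequent 77 bases before the TSS, where 30.4% of open members had one over the base. In all open promoters the highest share was 20.1%, at 54 bases before the TSS. A highest share over 56 genes is not like one over 13643, so means over stretches are given too. Over the 100 bases before the TSS the mean was 16.4% in members and 17.8% in all open promoters. Over 200 to 101 bases before it the means were 10.4% and 12.7%, and over the 100 bases after it 5.70% and 7.70%. From the TSS, the highest shares by type were 66.7% in H4, 40% in H1, 33.3% in H2A, 33.3% in H3 and 26.7% in H2B genes. Counted from the start codon, each type showed its own positions, and the shares below depend on that choice. H4 genes reached 58.3% at 132 bases before the start codon and H2A genes 53.3% at 79 bases before it. The 5 open H1 genes reached 60% at 149 bases before it, which is 3 genes. H2B genes stayed at or below 28.6% and H3 genes at or below 25% at every position. For 13 members the annotated TSS was the start codon itself, so distances from the TSS are uncertain there.

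**Figure D4:**
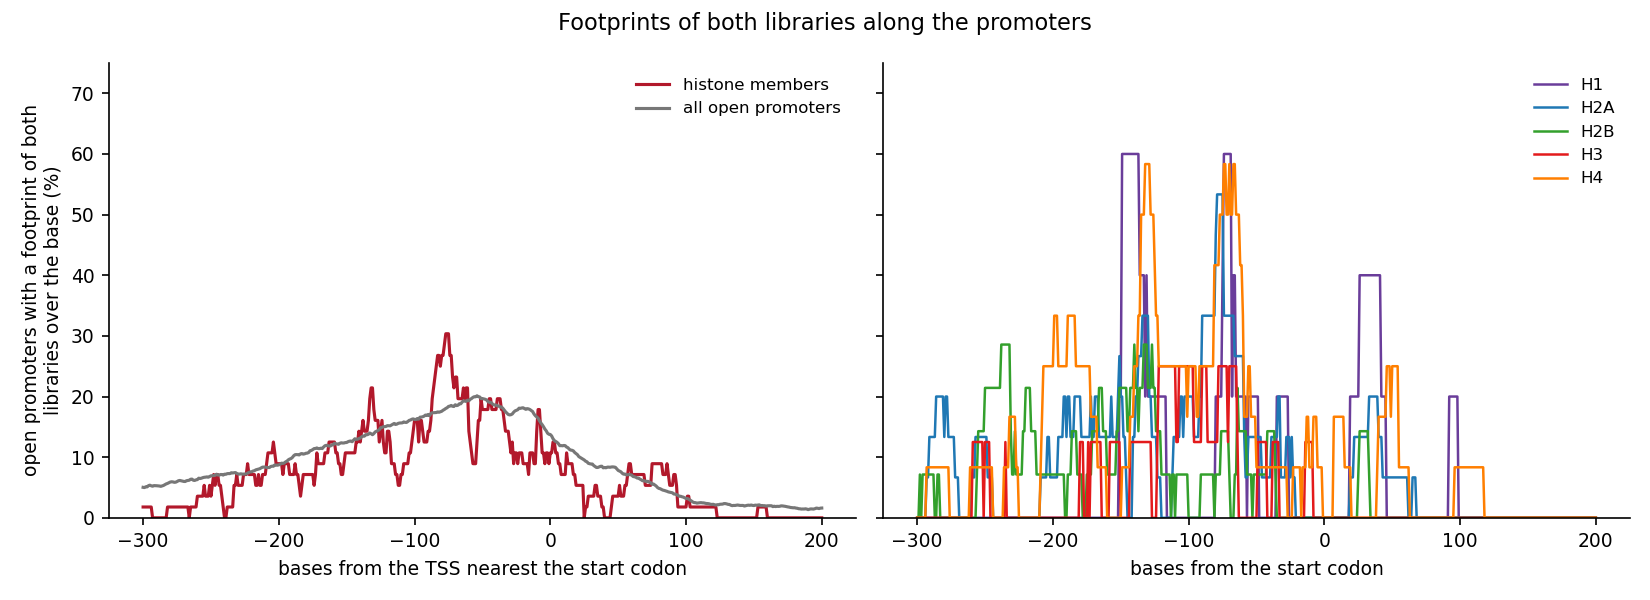
Share of open promoters with a footprint of both libraries over each base, counted from the TSS for members and for all open promoters (left) and from the start codon for members of each type (right; 5 H1, 15 H2A, 14 H2B, 8 H3 and 12 H4 genes). Members peak at 30.4% against 20.1% for all open promoters, but average 16.4% against 17.8% over the 100 bases before the TSS. From the start codon, the H4 and H2A curves have narrow peaks of 58.3% and 53.3%.

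The motif matches of open members were compared with those of all open promoters for the share touched by a footprint of both libraries, each genomic match counted once. For GGTCCG it was 10 of 14 matches (71.4%), against 21.6% in all open promoters. Of the 3 matches outside H4 genes, in Hist1h2bh, Hist1h3i and Hist1h3f, the one in Hist1h2bh was touched. For TATAAA it was 6 of 26 (23.1%), against 9.18%. For CCAAT it was 17 of 96 (17.7%), against 21.8%. This order turned in replicate 2 alone, with 31.2%, against 28.6%, and held in replicate 1 alone, with 24%, against 28.9%. For GGGCGG, the GC box, it was 13 of 35 (37.1%), against 51.6%. For the E2F form TTCCCGC it was 7 of 13 (53.8%), against 31.7%, where 4 of the 13 lay after the start codon. For the form TTGGCGC it was 0 of 5, against 40.8%, and all of these matches lay after the start codon, in coding sequence. For ATTTGCAT it was 1 of 9 (11.1%), against 10.2%. Each library alone gave more for this octamer, 4 of 9 (44.4%), against 19.0%, in replicate 1 and 2 of 9 (22.2%), against 14.6%, in replicate 2. For AAACACA it was 1 of 9 (11.1%), against 5.60%, and 2 of 9 in either library alone. TATAAA also gave more in each library alone, 34.6%, against 12%, in replicate 1 and 38.5%, against 13.9%, in replicate 2. GGTCCG and GGGCGG can overlap within 1 stretch of an H4 promoter. A match describes the letters and does not show that the factor was bound.

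The same motifs were also counted per gene, whether open or not. CCAAT was in 83.6% of members, against 37.0% of all protein-coding genes, and was the rule in every type except H4, where 4 of 13 genes had it. TATAAA was in 55.2% of members, against 13.5%. GGGCGG was in 46.3%, against 42.0%, with 10 of 13 H4 genes and 2 of 12 H3 genes among them. The matches of GGGCGG in the 8 H2B genes lay 25 bases after the start codon, in coding sequence. The only matches of the H2A genes Hist1h2ai, Hist1h2an, Hist1h2ah and Hist1h2ag also lay in coding sequence, 20 bases after the start codon. TTCCCGC was in 11.9%, against 5.64%, with 6 of its 8 genes of type H4. TTGGCGC was in 8.96%, against 2.77%, with 5 of its 6 genes of type H2A. All 6 matches lay 34 or 43 bases after the start codon, in coding sequence.

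Histone genes outside the clusters and genes that act on the members give a setting for these values. Of 11 replication-independent histone genes, which supply variants outside S phase, 10 were open at a median signal of 10.2, against 2.90 in the members. The strongest were H2afv at 19.1 and 17.2, H2afx at 19.7 and 15.98, and H2afj at 12.01 and 12.9. Of these, H2afx carried the second stem-loop form, as given above, so the list is not cleanly apart from the members. H1fx was not open. None of the 12 germ-cell genes for histones, transition proteins and protamines outside the clusters had an open promoter or a promoter peak in either library.

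The regulators of histone gene transcription were open in 16 of 17 cases at a median of 11.1. Npat had 18.5 and 14.6 and Hinfp 15.8 and 12.3. The strongest were E2f3 at 24.1 and 17.9, Nfya at 19.6 and 19.9, and Casp8ap2, the gene of a protein of the histone locus body, at 19.6 and 19.7. Pou2af1, a coactivator of B cells, had no region in both libraries. All 16 genes for the processing of histone mRNA 3′ ends were open at a median of 7.48, with Cpsf3 at 14.5 and 17.5, Snrpd3 at 9.58 and 12.3, Zfp473 at 11.9 and 8.50, and Slbp at 10.6 and 9.40. All 16 histone chaperone genes were open at a median of 10.2, with Hjurp at 30.1 and 37.0, Asf1b at 20.9 and 14.1, and Nap1l4 at 16.8 and 18.0. Npat, Hinfp and Slbp were named after their values were seen.

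All 20 markers of cycling cells were open at a median of 8.06, the strongest being the replication licensing genes Mcm4 at 17.1 and 15.9, Mcm5 at 14.9 and 15.2, and Mcm7 at 13.4 and 14.3. Thus each of these lists had a median signal above that of the members. The cytosolic ribosomal protein genes were open in 83 of 87 cases at 8.72, led by Rplp0, Rps19 and Rpl15. Rps27rt, Rpl10l, Rpl39l and Rpl3l were not open. Of 49 non-member genes between the outermost Hist1 members, most of them vomeronasal receptor genes of the Vmn1r family, 9 (18.4%) were open at a median of 2.23. The strongest were Zfp322a at 11.2 and 10.7, Abt1 at 3.26 and 5.11, and Zfp184 at 3.89 and 3.90.

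**Figure D5:**
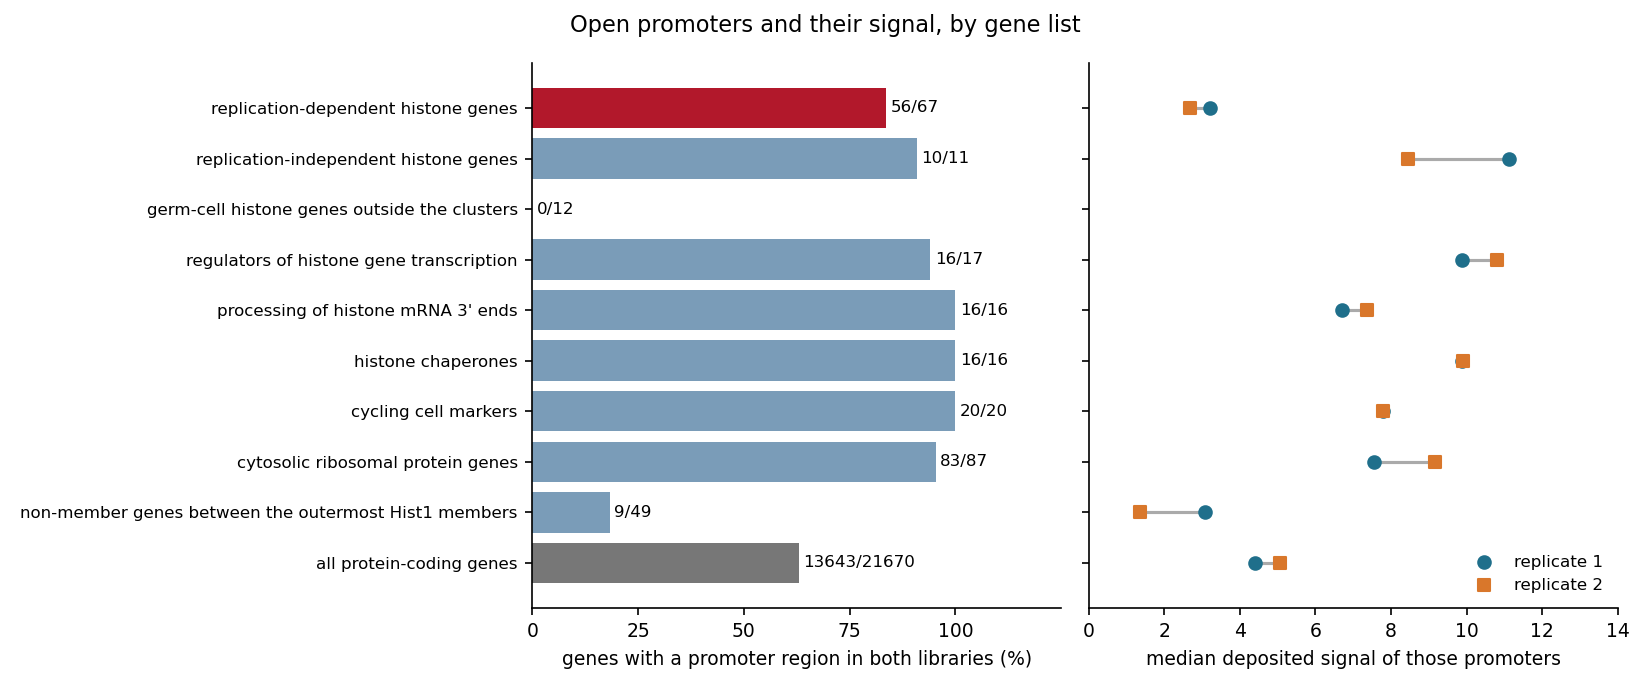
Share of genes with an open promoter (left, with counts) and median signal of the open promoters in each library (right), with the members at the top, the comparison lists below them and all protein-coding genes at the bottom. The members are open in 83.6% of cases at medians of 3.21 and 2.67, against 63.0% of all protein-coding genes at 4.399 and 5.05.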

How the data were processed

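DNase-seq was analysed in 2 libraries of a single group. Per the text list deposited with the files, every file was made from the filtered alignments of its own library on mm10, without pooling, although some had further inputs. For the aligner and the callers of peaks and footprints, the tools and versions were not given in the sources used here. The peak signal was set by the authors for each peak of the longer list, which held 137083 peaks in replicate 1 and 125000 in replicate 2. Signal values moved in steps of 0.00827 and 0.00834, which would mean 120.9 and 119.9 M tags (M, mega) if a step is 1 tag. The deposited FDR file gives a q-value for runs of bases up to 0.05, and the authors' footprint files carry a constant p-value or q-value level of 0.01 (316362 and 312966 footprints).

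Overlapping peaks of both libraries (at least 1 base) were joined into a region with the highest signal of each library. Footprints were joined likewise. Genes and sequence came from GENCODE M21 and GRCm38.p6. A TSS nearest the start codon set the motif windows. Scripts ran in Python 3.11.15 with NumPy 2.4.6, matplotlib 3.10.9 and bedtools 2.31.1 (to merge FDR runs) and were tested on simulated intervals. The members and lists were chosen with earlier results of these data known. The text names, by rule, the 2 highest and 2 lowest open members of each type, members that were not open, members outside Hist1, the 4 strongest divergent pairs, the 4 largest ratios between libraries, and the 3 strongest genes and the closed genes (up to 6) of each list. A few items are not reported here. Other genes named were chosen after their values were seen. Alternatives covered the window, the peak list, the threshold, the TSS, the overlap and each library alone.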

Additional observations from a re-analysis of the deposited data

How the results depend on the processing

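Under the 9 alternatives for peaks, 47 to 62 members (70.1% to 92.5%) were open. Over all protein-coding genes the share ran from 42.9% to 67.4%, but the lower ends belong to different settings. The 42.9% came from the window around the start codon, where 57 members were open. Under the alternatives for footprints, which include each library alone, 38 to 56 members (56.7% to 83.6%) held one, the 56 in replicate 1 alone. Over all protein-coding genes the share ran from 37.8%, in the window around the start codon, to 62.7%, in replicate 2 alone. The shorter peak list and the limit to peaks at or above the library's median signal each left 47 members open, 3 of them H1 genes, and raised the members' median signal to 3.42, since both remove weak regions. In these settings 70.1% of members were open, against 58.9% of all protein-coding genes with the shorter list and 56.5% with the limit. A window of 2000 bases opened 62 members and 1 germ-cell gene. A window around the start codon, added after seeing the data, left 9 regulators, 10 chaperone genes and 2 genes between the Hist1 members open, and the cause was not tested. Of all motif matches of open members 26.6% touched footprints of both libraries. With the whole match required inside the footprint it was 14.5%, and for GGTCCG 35.7%, against 10.2% in all open promoters. Each library alone gave 33.8% to 36.7%. Replicate 1 alone gave 59 open members, adding Hist1h3d, Hist1h4n and Hist2h3c2, and replicate 2 alone gave 56. Of 181 alternative values 155 stayed within 1.5 times the count or within the spread between the libraries. No paired analysis was possible because there was 1 group. Depth is not listed in the files, so low signals cannot be set against counting error, and a missing peak is not proof of closed chromatin.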

Other observations

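Within the blocks of members, 18 open regions of both libraries lay outside all promoter windows, 15 of them in the large block of Hist1. The strongest, chr13:23739641-23739960, had a signal of 11.4 in replicate 1 and 8.99 in replicate 2 (10.2 ± 1.71, SD, n = 2) and held 4 footprints of both libraries. It lay beyond the stem-loop of Hist1h1c and inside its annotated gene, with its centre 992 bases from the TSS, and its mean signal was above that of the Hist1h1c promoter, 4.91. The next regions were chr13:23730541-23730800 at 4.79 and 2.25 and chr13:23531641-23531840 at 3.25 and 3.62. These regions were chosen after their values were seen.

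Hist1h2be is annotated with a TSS 35138 bases from its start codon. The region at that TSS had 2.96 and 1.91, and a separate region at the start codon had 2.57 and 1.79.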
